A study of Homo sapiens with 12 samples.

Results

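The 10 genes described here encode the inhibitors of cyclin-dependent kinases (CDKs) of the CIP/KIP and INK4 families and the D-type cyclins. They were taken by name, as the rows of the deposited table whose Ensembl IDs belong to CDKN1A, CDKN1B, CDKN1C, CDKN2A, CDKN2B, CDKN2C, CDKN2D, CCND1, CCND2 and CCND3, and they are 10 of its 58302 gene IDs. The rule uses no expression value. All 10 were among the 23238 genes that passed the filter on low counts, CCND2 through its counts in PC3 only.

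The CDK inhibitors and the D cyclins act on the same step of the cell cycle. A D cyclin bound to CDK4 or CDK6 phosphorylates the retinoblastoma protein RB, which then lets go of the E2F transcription factors that switch on genes for DNA replication. INK4 proteins bind CDK4 and CDK6 and keep the D cyclins off, whereas CIP/KIP proteins bind whole cyclin-CDK complexes, above all those of CDK2.

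The study expressed ETV4, an ETS-family transcription factor, in PC3 and 22Rv1 cells, both established human lines of prostate cancer. Infection was with lentivirus made from an MSCV-IRES-GFP vector and carrying a mutated ETV4 (ETV4AAA), wild-type ETV4 (ETV4WT) or eGFP alone, so the controls too carry the virus and eGFP. Live cells positive for eGFP were sorted 1 week after infection, and poly(A) RNA was sequenced from 2 libraries in each of the 6 groups. The labels do not state which residues differ in ETV4AAA, nor that replicates came from separate cultures; p-values then cover only the spread among these libraries, which may be technical. PC3 and 22Rv1 are 1 established cell line each, and the bulk counts do not separate a gene expressed by fewer cells from one with less RNA per cell.

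Total counts were 43572713 to 51199207 per PC3 library and 41698738 to 50226044 per 22Rv1 library. ETV4 itself was measured at 215 and 112 CPM (reads of the gene scaled to the library's TMM-adjusted total) in the PC3 libraries labelled ETV4WT, 222 and 109 CPM in those labelled ETV4AAA and 116 and 126 CPM in the eGFP controls. Replicate 2 of each PC3 construct group was therefore not above the controls, and PC3 results of the 10 genes are also given without these 2 libraries where that ends or adds a call. Counts over the gene lists are given without them where they then differ by more than 1.5 times. The 22Rv1 libraries had ETV4 at 385 and 484 CPM with ETV4WT, 390 and 281 CPM with ETV4AAA and 31.2 and 24.9 CPM with eGFP. The 10 markers picked for 22Rv1 summed to 420 to 860 CPM in PC3 and to 1747 to 2690 CPM in 22Rv1. Only 1 of them, the prostate-specific antigen gene KLK3, was at 0 in all PC3 libraries. In eGFP controls 8 of the 10 were lower in PC3 than in 22Rv1 and 1 was higher (adjusted p under 0.05). Of all genes tested, 70.9% passed there (36.0% higher and 34.9% lower). HOXB13 did not pass, at a log2 difference of −0.12 ± 0.17 SE. Markers of immune cells summed to at most 0.929 CPM in PC3 and 9.38 CPM in 22Rv1, and CD3E, CD3D and MS4A1 were at 0 in PC3. Stromal and endothelial markers summed to 330 to 420 CPM in PC3, mostly COL1A2, and to 10.2 to 17.8 CPM in 22Rv1 (the part of these markers in the results was not tested). Markers picked for PC3 changed in 22Rv1 with ETV4AAA, where 6 of 9 tested were higher and 1 lower than with eGFP. Of 10 markers picked for 22Rv1, 1 was higher and 6 lower there, while 31.8% of all genes tested passed an adjusted p of 0.05 (17.4% higher and 14.4% lower). With ETV4WT in PC3, 3 of the 10 markers of 22Rv1 were higher and 2 lower, where 23.4% of all genes passed (12.7% higher and 10.7% lower). The part of these changes in the results below was not tested either.

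Since ETV4 is an ETS factor, the sequences around the starts of the genes are shown for the inhibitors whose transcripts changed most against eGFP within a line, CDKN1A and CDKN2B. The windows run from 250 bases before to 50 bases after the RefSeq start (GRCh38.p14, printed 5′ to 3′ on the gene's strand). They lie at chr6:36678464-36678763 on the plus strand for CDKN1A and at chr9:22009256-22009555 on the minus strand for CDKN2B. Capitals mark GGAA, the core that ETS proteins bind, on either strand (TTCC is the same core on the other strand).
CDKN1A: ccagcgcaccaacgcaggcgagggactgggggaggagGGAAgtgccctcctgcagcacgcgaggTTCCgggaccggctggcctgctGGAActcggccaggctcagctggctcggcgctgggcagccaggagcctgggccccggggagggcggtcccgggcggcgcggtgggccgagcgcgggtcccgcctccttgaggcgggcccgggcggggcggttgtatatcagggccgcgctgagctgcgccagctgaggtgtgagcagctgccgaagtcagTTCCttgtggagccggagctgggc
CDKN2B: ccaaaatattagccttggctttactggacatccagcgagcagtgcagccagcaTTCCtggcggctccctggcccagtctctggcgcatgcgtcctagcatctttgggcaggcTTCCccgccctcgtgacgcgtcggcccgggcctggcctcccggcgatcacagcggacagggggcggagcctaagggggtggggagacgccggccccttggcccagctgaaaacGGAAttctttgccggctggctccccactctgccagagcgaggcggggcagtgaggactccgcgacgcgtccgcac
The CDKN1A window holds 4 cores, of which 1 extends to CCGGAA, read on the opposite strand. The CDKN2B window holds 3 cores and no CCGGAA. RefSeq windows were at hand for 7 of the 10 genes, 12 windows in all; those of CDKN1C, CCND1 and CCND2 were not used here. CCGGAA also stood in 1 window of CCND3, and in 17.2% of all 35116 RefSeq windows of this length, while GGAA stood in 95.5% of them. CACGTG, the E-box that MYC binds, stood in 2 of the 3 CDKN2C windows and in 7.26% of all windows. TGANTCA, the AP-1 motif, stood in none of the 12 windows and in 7.71% of all windows.

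**Figure D1:**
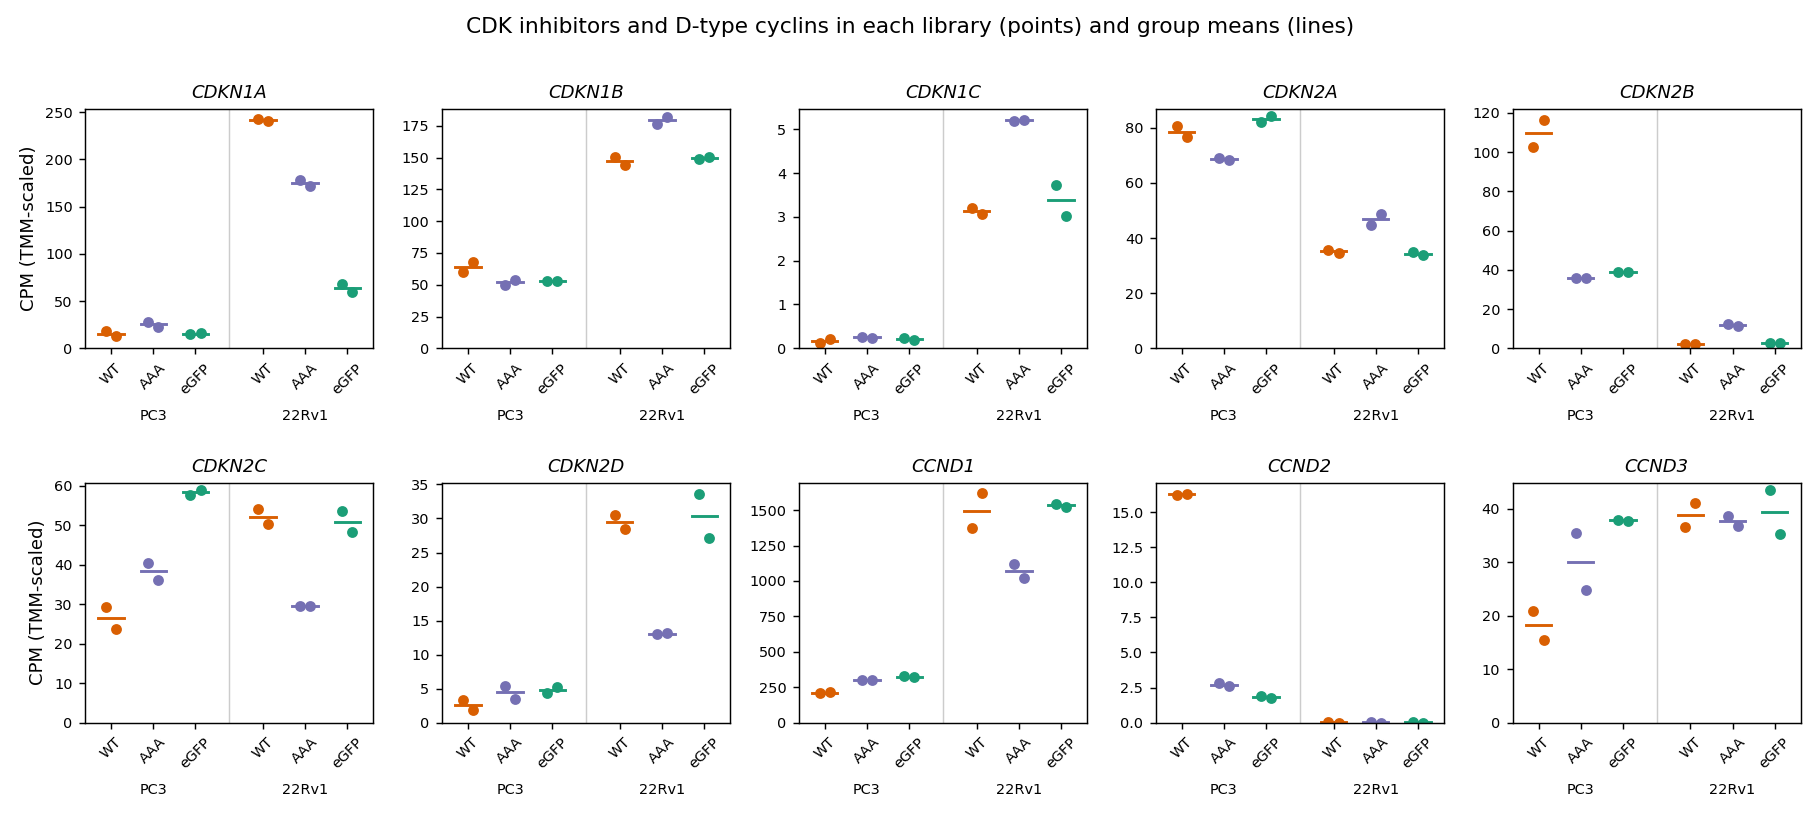
Level of each gene in CPM (linear axis from 0, its range set per gene) in every library, grouped by construct in the order ETV4WT, ETV4AAA and eGFP, with PC3 left and 22Rv1 right; points are libraries and lines are group means. CDKN1A is high in 22Rv1 with either construct, CDKN2B is high in PC3 with ETV4WT, and CCND2 had at most 3 reads in any 22Rv1 library.

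The lines differed before any ETV4 was added. In eGFP controls, 3 of the 10 genes were higher and 5 lower in PC3 than in 22Rv1 (edgeR's quasi-likelihood test, adjusted p under 0.05), where 70.9% of all genes tested passed the same test (36.0% higher and 34.9% lower). CDKN2A, CDKN2B and CCND2 were the genes higher in PC3. CDKN1A, CDKN1B, CDKN1C, CDKN2D and CCND1 were higher in 22Rv1. CDKN2C (log2 difference 0.20 ± 0.14 SE, adjusted p = 0.209) and CCND3 (−0.06 ± 0.19, adjusted p = 0.798) did not pass.

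The size of these line differences was large for several inhibitors. CDKN2B, which encodes p15, had 39.0 and 38.7 CPM in PC3 and 2.65 and 2.45 CPM in 22Rv1, a log2 difference of 3.93 ± 0.14 (adjusted p = 3.57e-10). CDKN1A, which encodes p21, had 14.6 and 16.1 CPM in PC3 and 68.6 and 59.5 CPM in 22Rv1, a log2 difference of −2.06 ± 0.16 (adjusted p = 2.69e-07). CCND1, the gene of cyclin D1, had 330.5 and 318 CPM in PC3 and 1546 and 1525 CPM in 22Rv1, a log2 difference of −2.24 ± 0.12 (adjusted p = 7.86e-09). In none of these genes did the libraries of the lines overlap. The cyclin D2 gene CCND2 had 175 reads over both PC3 controls and 1 read over both 22Rv1 controls, a depth-adjusted ratio of 177 with an exact 95% interval of 31.4 to 7031 that covers counting error only.

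Constructs changed different sets of these genes. In PC3, ETV4WT raised 2 of the 10 genes (CDKN2B and CCND2) and lowered 4 (CDKN2C, CDKN2D, CCND1 and CCND3) against eGFP, where 23.4% of all genes passed (12.7% higher and 10.7% lower). In PC3, ETV4AAA raised 1 (CDKN1A) and lowered 1 (CDKN2C), where 3.69% of all genes passed (2.45% higher and 1.24% lower). In 22Rv1, ETV4WT raised 1 (CDKN1A), with CCND2 too scarce to measure and the other 8 genes at log2 changes of at most 0.15 in size, where 1.50% of all genes passed (1.06% higher and 0.439% lower). In 22Rv1, ETV4AAA raised 4 (CDKN1A, CDKN1C, CDKN2A and CDKN2B) and lowered 3 (CDKN2C, CDKN2D and CCND1), where 31.8% of all genes passed (17.4% higher and 14.4% lower). The comparisons within a line share their eGFP controls.

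Set directly against ETV4WT, ETV4AAA gave higher levels of 4 genes in PC3 (CDKN1A, CDKN2C, CCND1 and CCND3) and lower levels of 2 (CDKN2B and CCND2), where 11.0% of all genes passed (3.65% higher and 7.32% lower). In 22Rv1, 3 genes were higher with ETV4AAA than with ETV4WT (CDKN1C, CDKN2A and CDKN2B) and 4 were lower (CDKN1A, CDKN2C, CDKN2D and CCND1), where 23.5% passed (13.9% higher and 9.62% lower). The median log2 change of the 10 genes against eGFP was −0.20 with ETV4WT in PC3 and 0.35 with ETV4AAA in 22Rv1, while the median of all genes lay at 0 and −0.0012.

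**Figure D2:**
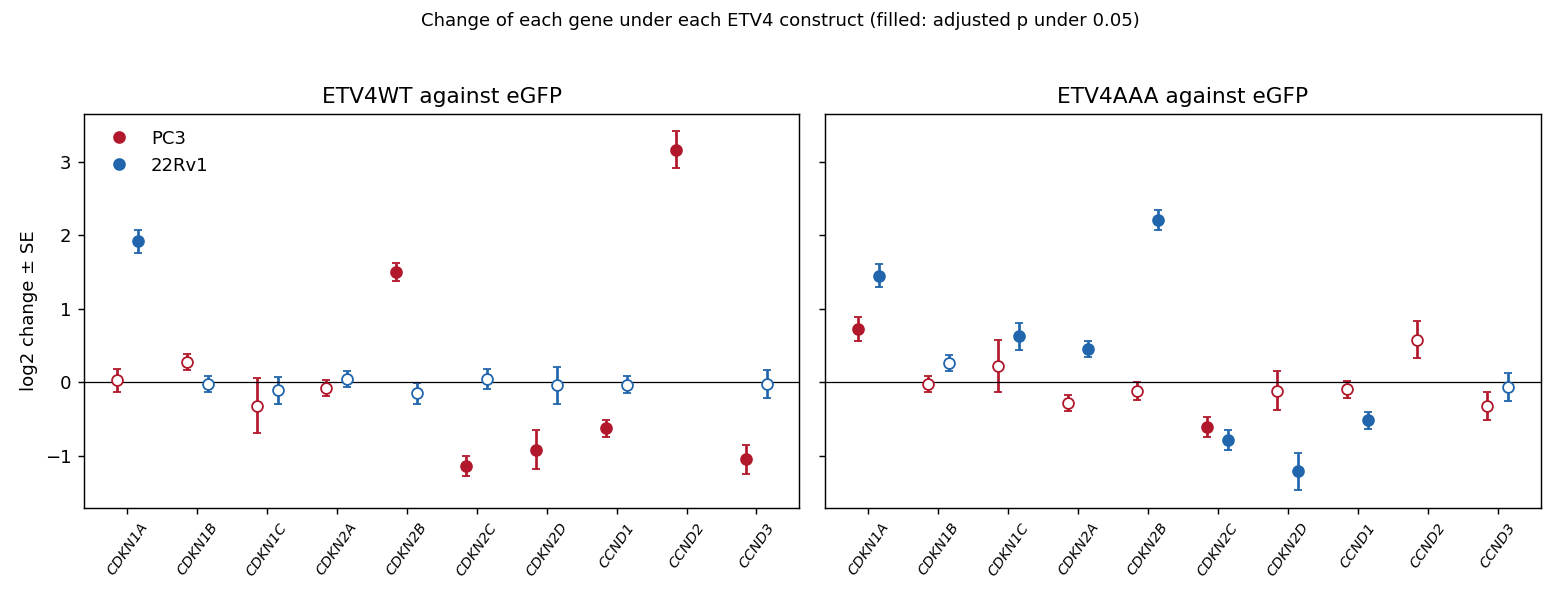
Log2 change of each gene against the eGFP control of its line, with ETV4WT in the left panel and ETV4AAA in the right; bars are ± 1 SE, filled points passed an adjusted p of 0.05, red is PC3 and blue is 22Rv1. CCND2 is drawn for PC3 only, since it had at most 3 reads in any 22Rv1 library. CDKN2B is raised by ETV4WT in PC3 and by ETV4AAA in 22Rv1.

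CDKN1A (ENSG00000124762, chr6:36676460-36687339, plus strand, GRCh38) was the inhibitor that responded to both constructs in 22Rv1. Its libraries read 242 and 241 CPM with ETV4WT, 178 and 171 CPM with ETV4AAA and 68.6 and 59.5 CPM with eGFP. Every library of a construct group lay above both controls, and the ETV4WT libraries lay above the ETV4AAA libraries. The log2 change was 1.92 ± 0.16 with ETV4WT (adjusted p = 5.24e-05) and 1.45 ± 0.16 with ETV4AAA (adjusted p = 2.57e-05). Both calls held in every alternative that was run. By its p-value with ETV4WT, CDKN1A ranked 28 of the 23238 genes. ETV4AAA was lower than ETV4WT by a log2 change of −0.47 ± 0.16 (adjusted p = 0.0473), a call lost when any 1 of the 4 libraries was left out (adjusted p = 0.138 to 0.189).

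In PC3 the same gene read 18.0 and 13.3 CPM with ETV4WT, 28.0 and 22.7 CPM with ETV4AAA and 14.6 and 16.1 CPM with eGFP. The ETV4WT libraries lay on either side of the controls, and both ETV4AAA libraries lay above all the others. The log2 change was 0.02 ± 0.16 with ETV4WT (95% interval −0.32 to 0.37, adjusted p = 0.956) and 0.72 ± 0.16 with ETV4AAA (adjusted p = 0.0270). The ETV4AAA call was lost without ETV4AAA replicate 1 (adjusted p = 0.0646), ETV4AAA replicate 2 (0.0566), eGFP replicate 1 (0.268) or eGFP replicate 2 (0.130), and stood without replicate 2 of both construct groups (0.86, adjusted p = 0.00241). ETV4AAA exceeded ETV4WT by 0.70 ± 0.16 (adjusted p = 0.0142), which was lost without ETV4AAA replicate 1 (adjusted p = 0.100), ETV4WT replicate 2 (0.0937) or both replicates 2 (0.0626).

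CDKN1B (ENSG00000111276, chr12:12715058-12722371, plus strand), the gene of p27, passed the test in no comparison between constructs. It read 59.8 and 68.2 CPM with ETV4WT, 50.0 and 53.8 CPM with ETV4AAA and 53.3 and 52.7 CPM with eGFP in PC3. The 22Rv1 libraries read 151 and 144 CPM with ETV4WT, 177 and 182 CPM with ETV4AAA and 149 and 150.5 CPM with eGFP. The ETV4AAA libraries of 22Rv1 and the ETV4WT libraries of PC3 lay above their controls, but neither change passed. The log2 change was 0.27 ± 0.11 with ETV4WT in PC3 (adjusted p = 0.0945) and 0.26 ± 0.11 with ETV4AAA in 22Rv1 (adjusted p = 0.0899). The PC3 value passed without ETV4WT replicate 1 (0.36, adjusted p = 0.0457) and under upper-quartile scaling (0.42, adjusted p = 0.0346).

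CDKN1C (ENSG00000129757, chr11:2883213-2885773, minus strand), the gene of p57, was close to absent from PC3. Its libraries there held 7 to 13 reads each, 0.130 to 0.267 CPM, and no PC3 change passed. Levels in 22Rv1 were 3.20 and 3.06 CPM with ETV4WT, 5.19 and 5.22 CPM with ETV4AAA and 3.73 and 3.02 CPM with eGFP. Both ETV4AAA libraries lay above the other 4. The log2 change with ETV4AAA was 0.62 ± 0.18 against eGFP (adjusted p = 0.0196), and the call was lost without ETV4AAA replicate 1 (0.0745), ETV4AAA replicate 2 (0.0756) or eGFP replicate 2 (0.148) and with DESeq2's Wald test (0.0642).

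CDKN2B (ENSG00000147883, chr9:22002903-22009363, minus strand) moved with opposite constructs in the lines. In PC3 it read 103 and 116 CPM with ETV4WT, 35.6 and 35.7 CPM with ETV4AAA and 39.0 and 38.7 CPM with eGFP. ETV4WT stood apart, and ETV4AAA lay just below the controls. The log2 change in PC3 was 1.50 ± 0.13 with ETV4WT (adjusted p = 8.75e-06) and −0.12 ± 0.12 with ETV4AAA (95% interval −0.39 to 0.15, adjusted p = 0.623). The ETV4WT change was 1.50 (adjusted p = 5.97e-06) without replicate 2 of both construct groups.

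In 22Rv1 CDKN2B read 2.33 and 2.26 CPM with ETV4WT, 12.2 and 11.3 CPM with ETV4AAA and 2.65 and 2.45 CPM with eGFP. Here ETV4AAA stood apart, at a level still below that of every PC3 library. The log2 change in 22Rv1 was 2.20 ± 0.14 with ETV4AAA (adjusted p = 2.06e-07), and with ETV4WT the 95% interval ran from −0.46 to 0.16. ETV4AAA against ETV4WT gave −1.62 ± 0.13 in PC3 (adjusted p = 1.31e-05) and 2.35 ± 0.14 in 22Rv1 (adjusted p = 1.69e-07). These calls in CDKN2B held in every alternative that was run.

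CDKN2A (ENSG00000147889, chr9:21967753-21995301, minus strand) encodes p16 and, from another first exon, ARF, and its count adds the transcripts of both. In PC3 it read 80.6 and 76.7 CPM with ETV4WT, 68.9 and 68.4 CPM with ETV4AAA and 82.2 and 84.5 CPM with eGFP. In 22Rv1 it read 35.7 and 34.6 CPM with ETV4WT, 44.7 and 48.9 CPM with ETV4AAA and 34.8 and 33.7 CPM with eGFP. The ETV4AAA libraries were the lowest in PC3 and the highest in 22Rv1. The log2 change with ETV4AAA was −0.28 ± 0.11 in PC3 (adjusted p = 0.237) and 0.45 ± 0.11 in 22Rv1 (adjusted p = 0.00858). The 22Rv1 call was lost without ETV4AAA replicate 2 (0.0748) or eGFP replicate 2 (0.0613). The antisense gene CDKN2B-AS1 shares 7.88% of the exon bases of CDKN2A and none of CDKN2B; it read at most 2.69 CPM with ETV4WT in PC3 and at most 0.779 CPM in any 22Rv1 library. The strand setting of the counting is not given, so reads of the shared stretch cannot be told apart.

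CDKN2C (ENSG00000123080, chr1:50960745-50974633, plus strand), the gene of p18, fell in 3 of the 4 comparisons with eGFP. In PC3 it read 29.2 and 23.8 CPM with ETV4WT, 40.5 and 36.1 CPM with ETV4AAA and 57.7 and 59.0 CPM with eGFP. The 22Rv1 libraries read 54.0 and 50.4 CPM with ETV4WT, 29.5 and 29.6 CPM with ETV4AAA and 53.5 and 48.3 CPM with eGFP. The PC3 groups did not overlap, and in 22Rv1 ETV4AAA alone stood apart. The log2 change in PC3 was −1.14 ± 0.14 with ETV4WT (adjusted p = 0.000116) and −0.61 ± 0.14 with ETV4AAA (adjusted p = 0.0294). In 22Rv1 the change was −0.79 ± 0.14 with ETV4AAA (adjusted p = 0.000910), and this call and that of ETV4WT in PC3 held in every alternative that was run. The PC3 call with ETV4AAA was lost without ETV4AAA replicate 2 (0.227), eGFP replicate 1 (0.193), eGFP replicate 2 (0.270) or both replicates 2 (0.0643).

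CDKN2D (ENSG00000129355, chr19:10566462-10569059, minus strand), the gene of p19, had the lowest level per kilobase of the INK4 genes in PC3. There it read 3.27 and 1.83 CPM with ETV4WT, 5.38 and 3.51 CPM with ETV4AAA and 4.39 and 5.28 CPM with eGFP. The PC3 change with ETV4WT was −0.92 ± 0.27 (adjusted p = 0.0282), and it was lost without ETV4WT replicate 2 (−0.56, adjusted p = 0.195), eGFP replicate 1 (−1.05, 0.0636), eGFP replicate 2 (−0.70, 0.216) or both replicates 2 (−0.47, 0.138). Levels in 22Rv1 were 30.5 and 28.4 CPM with ETV4WT, 13.0 and 13.1 CPM with ETV4AAA and 33.6 and 27.2 CPM with eGFP. ETV4AAA lay far below the others, with a log2 change of −1.22 ± 0.25 (adjusted p = 0.00294).

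CCND1 (ENSG00000110092, chr11:69641087-69654474, plus strand) was the main D cyclin transcript of both lines. In PC3 it read 207 and 213 CPM with ETV4WT, 302 and 303 CPM with ETV4AAA and 330.5 and 318 CPM with eGFP. In 22Rv1 it read 1373 and 1622 CPM with ETV4WT, 1123 and 1020.3 CPM with ETV4AAA and 1546 and 1525 CPM with eGFP. ETV4WT was lowest in PC3, and ETV4AAA was lowest in 22Rv1. The log2 change was −0.63 ± 0.12 with ETV4WT in PC3 (adjusted p = 0.00217) and −0.52 ± 0.11 with ETV4AAA in 22Rv1 (adjusted p = 0.00453), the last lost without ETV4AAA replicate 2 (−0.45, adjusted p = 0.0514). The overlapping gene LTO1 shares 10.3% of the exon bases of CCND1 and read 12.5 and 11.3 CPM with ETV4AAA and 18.9 and 16.6 CPM with eGFP in 22Rv1. LTO1 was lower with ETV4AAA as well (−0.58 ± 0.15, adjusted p = 0.0124), and the reads of the shared bases cannot be told apart.

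CCND2 (ENSG00000118971, chr12:4273772-4305350, plus strand), the gene of cyclin D2, showed the steepest rise of the 10 genes in any comparison with eGFP. In PC3 it read 16.3 and 16.3 CPM with ETV4WT, 2.79 and 2.63 CPM with ETV4AAA and 1.89 and 1.74 CPM with eGFP. These are 876 and 811, 136 and 110, and 94 and 81 reads. ETV4WT stood far above both other groups, and ETV4AAA lay slightly above the controls. The log2 change was 3.16 ± 0.25 with ETV4WT (adjusted p = 6.38e-06) and 0.58 ± 0.25 with ETV4AAA (adjusted p = 0.292). ETV4AAA was lower than ETV4WT by −2.58 ± 0.24 (adjusted p = 3.54e-05), and both calls held in every alternative that was run. In 22Rv1 the libraries held 1 and 0 reads with ETV4WT, 3 and 0 with ETV4AAA and 1 and 0 with eGFP, so no change within that line was measurable. Of the 50-base stretches in its exons, 13.2% occur in other genes, which are AC008012.1, CCND2-AS1 and the pseudogene CCND2P1.

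CCND3 (ENSG00000112576, chr6:41934933-42050357, minus strand), the gene of cyclin D3, fell in PC3 with ETV4WT. It read 21.0 and 15.5 CPM with ETV4WT, 35.4 and 24.9 CPM with ETV4AAA and 38.0 and 37.7 CPM with eGFP in PC3. The 22Rv1 libraries read 36.6 and 41.1 CPM with ETV4WT, 38.7 and 36.8 CPM with ETV4AAA and 43.5 and 35.4 CPM with eGFP. The 22Rv1 groups overlapped, whereas in PC3 both ETV4WT libraries lay below all others. The log2 change with ETV4WT in PC3 was −1.05 ± 0.19 (adjusted p = 0.00227), and without replicate 2 of both construct groups it was −0.76 (adjusted p = 0.00447).

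In PC3 the ETV4AAA libraries also lay above the ETV4WT libraries for CDKN2C, CCND1 and CCND3, with calls that were lost when certain libraries were left out. CDKN2C was higher with ETV4AAA by 0.53 ± 0.14 (adjusted p = 0.0263), and the call was lost without ETV4AAA replicate 1 (0.139), ETV4AAA replicate 2 (0.0713), ETV4WT replicate 2 (0.143) or both replicates 2 (0.224). CCND1 was higher by 0.53 ± 0.12 (adjusted p = 0.0112), which was lost without ETV4AAA replicate 2 (0.0618), ETV4WT replicate 1 (0.0553) or both replicates 2 (0.142). CCND3 was higher by 0.72 ± 0.19 (adjusted p = 0.0327), which was lost without ETV4AAA replicate 1 (0.226) or ETV4WT replicate 2 (0.178).

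In 22Rv1, ETV4AAA also differed from ETV4WT in 5 genes beside CDKN1A and CDKN2B. CDKN2C was lower by −0.82 ± 0.14 (adjusted p = 0.000874) and CDKN2D by −1.17 ± 0.25 (adjusted p = 0.00489, and 0.0502 without ETV4WT replicate 1). CCND1 was lower by −0.48 ± 0.11 (adjusted p = 0.00917), lost without ETV4AAA replicate 2 (0.0854) or ETV4WT replicate 2 (0.0687). CDKN1C was higher by 0.73 ± 0.18 (adjusted p = 0.0112), lost without ETV4AAA replicate 1 (0.0548), ETV4AAA replicate 2 (0.0508) or ETV4WT replicate 2 (0.0656). CDKN2A was higher by 0.41 ± 0.11 (adjusted p = 0.0178), lost without ETV4AAA replicate 2 (0.128), ETV4WT replicate 1 (0.0619) or ETV4WT replicate 2 (0.0789).

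Whether a construct acted differently in the lines was tested by the difference of its effects, PC3 minus 22Rv1. The effect of ETV4WT differed for 5 of the 10 genes, 1 higher and 4 lower in PC3, where 12.5% of all genes passed (7.57% higher and 4.92% lower). CDKN1A responded to ETV4WT in 22Rv1 more than in PC3 (difference −1.89 ± 0.22, adjusted p = 0.000218). CDKN2B rose more in PC3 (1.65 ± 0.19, adjusted p = 0.000178). CDKN2C fell more in PC3 (−1.17 ± 0.19, adjusted p = 0.00200), as did CCND3 (−1.03 ± 0.27, adjusted p = 0.0292) and CCND1 (−0.59 ± 0.16, adjusted p = 0.0347). The CCND1 call was lost when any library but 22Rv1 ETV4WT replicate 1 was left out (adjusted p = 0.0521 to 0.193) and without both PC3 replicates 2 (0.0936). The CCND3 call was lost without PC3 ETV4WT replicate 2, either PC3 eGFP replicate, either 22Rv1 ETV4WT replicate or 22Rv1 eGFP replicate 2 (adjusted p = 0.0872 to 0.123).

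The effect of ETV4AAA differed for 3 genes, all lower in PC3, where 16.2% of all genes passed (6.73% higher and 9.48% lower). They were CDKN2B (−2.33 ± 0.18, adjusted p = 4.53e-06), CDKN2A (−0.73 ± 0.16, adjusted p = 0.00724) and CDKN1A (−0.72 ± 0.22, adjusted p = 0.0452). CDKN2D missed the threshold at 1.10 ± 0.36 (adjusted p = 0.0598) and passed without PC3 ETV4AAA replicate 2 (1.37, adjusted p = 0.0320) and without both PC3 replicates 2 (1.35, adjusted p = 0.00144). For CDKN1A the ETV4AAA call was lost when any library but PC3 ETV4AAA replicate 1 was left out (adjusted p = 0.0553 to 0.177). For CDKN2A it was lost without PC3 eGFP replicate 2 (−0.70, adjusted p = 0.0565). ETV4 stood higher above its control in 22Rv1 than in PC3 (the levels above), and its part in these differences was not tested.

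**Figure D3:**
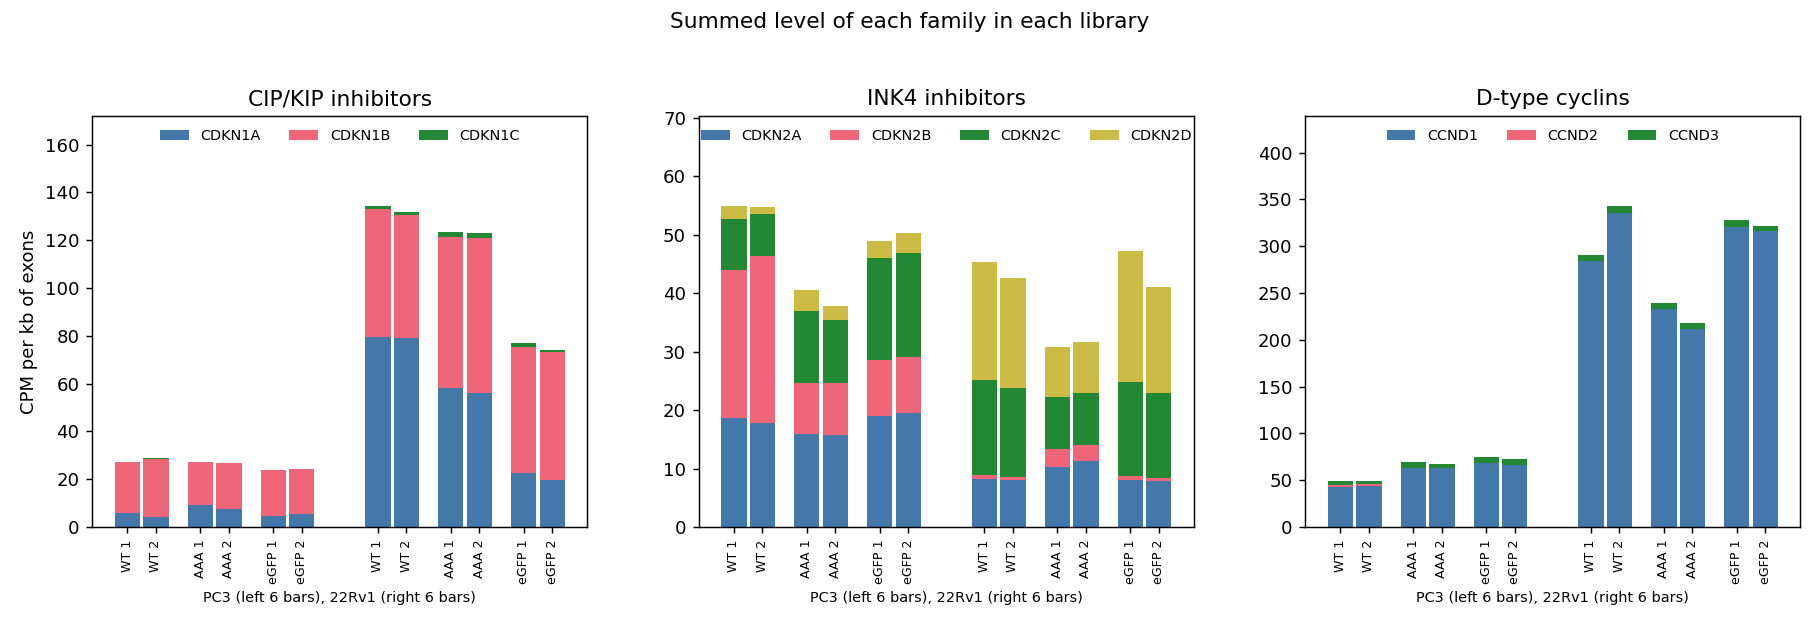
Sum of the levels of each family in CPM per kilobase of exon, split by gene, with 1 bar per library in the order ETV4WT, ETV4AAA and eGFP for PC3 and then 22Rv1. The CIP/KIP sum in 22Rv1 is higher with either construct, mostly through CDKN1A, and the INK4 sum changes its makeup in PC3 with ETV4WT, mostly through CDKN2B.

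Levels of different genes can be set side by side only per length, so the families were summed as CPM per kilobase of exon. The CIP/KIP sum in 22Rv1 was 134 and 132 with ETV4WT, 123 and 123 with ETV4AAA and 76.9 and 74.2 with eGFP. CDKN1A made up 59.2% and 60.0% of it with ETV4WT, 47.3% and 45.7% with ETV4AAA and 29.2% and 26.3% with eGFP. In PC3 the CIP/KIP sum stayed between 23.9 and 28.7 in every library, and CDKN1A made up at most 33.9% of it. In both lines CDKN1B was the other large part.

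The INK4 sum in PC3 was 54.9 and 54.8 with ETV4WT, 40.5 and 37.8 with ETV4AAA and 48.9 and 50.3 with eGFP. CDKN2B gave 46.1% and 52.4% of it with ETV4WT, 21.7% and 23.3% with ETV4AAA and 19.6% and 18.9% with eGFP. CDKN2C fell where CDKN2B rose, and the sum moved less than its makeup. In 22Rv1 the INK4 sum was 45.4 and 42.7 with ETV4WT, 30.9 and 31.7 with ETV4AAA and 47.2 and 41.0 with eGFP. CDKN2D gave 28.1% and 27.5% of it with ETV4AAA and 47.4% and 44.1% with eGFP, while CDKN2B gave 9.72% and 8.77% with ETV4AAA and 1.38% and 1.47% with eGFP.

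The D cyclin sum in PC3 was 48.8 and 49.0 with ETV4WT, 69.1 and 67.5 with ETV4AAA and 75.2 and 72.7 with eGFP. In 22Rv1 it was 291 and 343 with ETV4WT, 239 and 218 with ETV4AAA and 328 and 322 with eGFP. CCND1 made up 87.9% to 93.1% of the sum in PC3 and 97.1% to 98.1% in 22Rv1. CCND2 gave 4.66% and 4.65% with ETV4WT and 0.351% and 0.334% with eGFP in PC3, so its steep rise added little to the sum.

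The genes on which the inhibitors and D cyclins act were taken as 19 genes of the RB-E2F axis (CDKs, E-type cyclins, RB-family and E2F genes) and 20 E2F target genes of DNA replication. These lists, like those below, were chosen with earlier results of these data known. Against eGFP, ETV4AAA in 22Rv1 lowered 20 of the 20 E2F target genes and raised none, with a median log2 change of −1.21, while the median of all genes was −0.0012. Of all genes tested, 31.8% passed there (17.4% higher and 14.4% lower). RRM2, a subunit of ribonucleotide reductase, fell by −1.72 ± 0.13, GINS2 of the replicative helicase by −1.44 ± 0.12 and MCM4 of the same helicase by −1.34 ± 0.10 (adjusted p at most 1.79e-06). MCM4 read 120.1 and 122 CPM with ETV4AAA and 305 and 306 CPM with eGFP. Of the RB-E2F axis, 11 genes fell and none rose, among them CDC25A, the phosphatase that activates CDK2 (−1.22 ± 0.11, adjusted p = 5.10e-06), and the repressor E2F7 (−1.53 ± 0.13, adjusted p = 2.52e-06).

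In PC3, ETV4WT lowered 12 of the 20 E2F target genes and raised none, with a median of −0.66, against a median of 0 for all genes. Of all genes tested, 23.4% passed there (12.7% higher and 10.7% lower). The flap endonuclease gene FEN1 fell by −1.06 ± 0.13 (adjusted p = 0.000160) and MCM4 by −0.66 ± 0.10 (adjusted p = 0.000460), while RRM1 was at 0.07 ± 0.14 (adjusted p = 0.767). Without replicate 2 of both construct groups 10 genes fell, without eGFP replicate 1 or eGFP replicate 2 it was 6, and with PC3 fitted alone it was 7. Of the RB-E2F axis, 3 genes rose and 7 fell (2 rose and 4 fell without eGFP replicate 2): the repressor E2F8 rose by 1.90 ± 0.17 (adjusted p = 1.22e-05) and CDK2 fell by −0.77 ± 0.11 (adjusted p = 0.000490). CDK6 read 171 and 221 CPM with ETV4WT, against 169 and 169 CPM with eGFP, a log2 change of 0.21 ± 0.14 (adjusted p = 0.317).

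In the other comparisons with eGFP no E2F target gene passed, while 3.69% of all genes passed with ETV4AAA in PC3 and 1.50% with ETV4WT in 22Rv1. With ETV4AAA in PC3 none of the 20 passed by edgeR, where 2 were higher and 5 lower at an unadjusted p under 0.05. None passed by DESeq2. With no filter on low counts 5 were called lower, where 2152 of all genes were called (907 higher and 1245 lower), against 858 with the filter. Some were also called lower without ETV4AAA replicate 1, a fit that leaves 1 library in that group and called more of all genes too. With ETV4WT in 22Rv1 none passed by edgeR, none was higher and 7 were lower at an unadjusted p under 0.05, and none passed by DESeq2. Of the RB-E2F axis, ETV4AAA in PC3 raised 2 genes, E2F8 (1.52 ± 0.17, adjusted p = 0.000487) and E2F7 (0.55 ± 0.12, adjusted p = 0.0272). Only 1 of the axis passed with ETV4AAA in PC3, as higher, without both replicates 2, without ETV4AAA replicate 2, without either eGFP replicate or with PC3 fitted alone, and without ETV4AAA replicate 1 it was 2 higher and 2 lower. ETV4WT in 22Rv1 lowered 1, E2F7 (−0.63 ± 0.12, adjusted p = 0.0271), and none passed there when any 1 of the 4 libraries was left out, while 2 were lower with 22Rv1 fitted alone or with no filter. The effect of ETV4AAA on 13 of the 20 E2F target genes was higher in PC3 than in 22Rv1, and on none was it lower, where 16.2% of all genes passed (6.73% higher and 9.48% lower). That of ETV4WT was lower in PC3 for 3, where 12.5% of all genes passed (7.57% higher and 4.92% lower). They were FEN1 (−0.87 ± 0.19, adjusted p = 0.0108), PCNA (−0.68 ± 0.16, adjusted p = 0.0193) and GINS2 (−0.55 ± 0.16, adjusted p = 0.0457). This count was 1 without both PC3 replicates 2, without replicate 1 of the eGFP controls of either line or under upper-quartile factors, and 2 without PC3 ETV4WT replicate 2. It was 0 without replicate 2 of the eGFP controls of either line or without 22Rv1 ETV4WT replicate 1. With no filter on low counts 1 was higher and 4 lower, and without PC3 ETV4WT replicate 1 it was 1 higher and 5 lower.

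**Figure D4:**
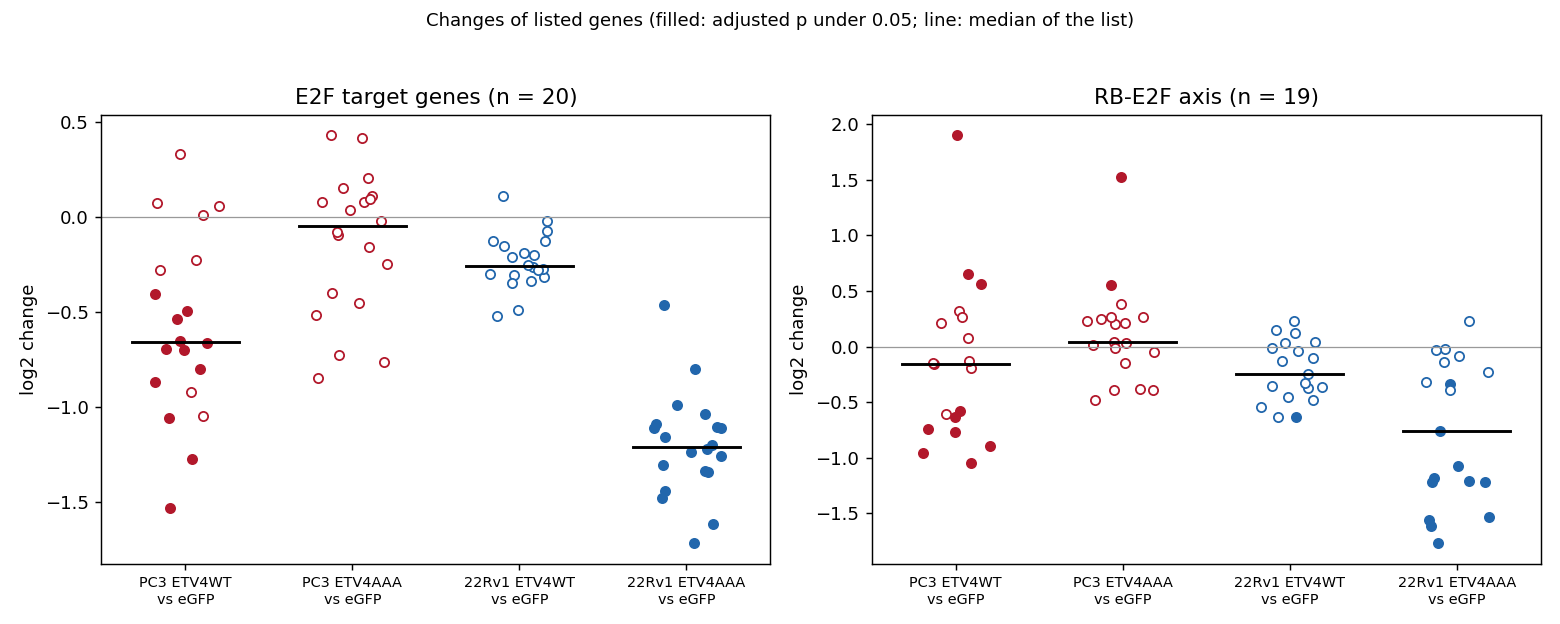
Log2 change against the eGFP control of the same line for the genes of each list, with 1 point per gene (filled where it passed an adjusted p of 0.05) and a bar at the list's median, for the 20 E2F target genes (left) and the 19 genes of the RB-E2F axis (right). With ETV4AAA in 22Rv1 all 20 E2F target genes lie below 0, as does the median of the axis at −0.76.

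Of 19 genes for the turnover of the inhibitors and D cyclins, ETV4WT in PC3 raised 1 and lowered 5, where 23.4% of all genes passed, and ETV4AAA in 22Rv1 raised 3 and lowered 4, where 31.8% of all genes passed. The share of all genes was 3.69% with ETV4AAA in PC3 and 1.50% with ETV4WT in 22Rv1. The PC3 count with ETV4WT was 2, both lower, without either eGFP replicate, 3, all lower, without ETV4WT replicate 2, and 1 higher and 3 lower without both replicates 2. SKP2, the ubiquitin ligase subunit that marks p27 for decay, fell by −0.52 ± 0.12 with ETV4WT in PC3 (adjusted p = 0.0105) and by −0.91 ± 0.13 with ETV4AAA in 22Rv1 (adjusted p = 0.000167). DTL, the ligase subunit that marks p21, fell by −0.73 ± 0.12 with ETV4WT in PC3 (adjusted p = 0.00110), by −0.60 ± 0.12 with ETV4WT in 22Rv1 (adjusted p = 0.0306, not passed when any 1 of the 4 libraries was left out) and by −1.63 ± 0.12 with ETV4AAA in 22Rv1 (adjusted p = 1.20e-06). ETV4AAA in PC3 raised 1 (GSK3B, 0.56 ± 0.13, adjusted p = 0.0345) and lowered 1 (CRYAB, −1.69 ± 0.41, adjusted p = 0.0460), and neither passed without both replicates 2, ETV4AAA replicate 2 or either eGFP replicate, or with PC3 fitted alone.

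Of 16 regulators of the INK4 genes, ETV4WT in PC3 raised 1 and lowered 4, and ETV4AAA in 22Rv1 raised 3 and lowered 3, against the same shares of all genes (23.4% and 31.8%). The PC3 count was 2, both lower, without either eGFP replicate, and the 22Rv1 count was 3 without either ETV4AAA replicate. The Polycomb gene CBX8 fell by −1.37 ± 0.22 with ETV4WT in PC3 (adjusted p = 0.000987), where ETS1, an ETS-family activator, rose by 0.65 ± 0.13 (adjusted p = 0.00640). These genes were also the ones called with ETV4AAA in PC3, CBX8 at −0.90 ± 0.22 (adjusted p = 0.0445) and ETS1 at 0.57 ± 0.13 (adjusted p = 0.0486). EZH2, the Polycomb methyltransferase gene, fell by −1.15 ± 0.13 with ETV4AAA in 22Rv1 (adjusted p = 3.84e-05), where ETS2 of the same family as ETS1 rose by 0.82 ± 0.14 (adjusted p = 0.000721). In 22Rv1 with ETV4WT none of the 16 passed by edgeR, 1 was higher and 2 lower at an unadjusted p under 0.05, and DESeq2 called 1 higher and none lower. Of all genes, 1.50% passed there by edgeR, and 3.69% passed with ETV4AAA in PC3. In PC3 with ETV4AAA 1 rose and 1 fell, and none passed without both replicates 2, ETV4AAA replicate 2 or either eGFP replicate, or with PC3 fitted alone.

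Of 22 transcription regulators of the CIP/KIP and D cyclin genes, ETV4WT raised 7 and lowered 1 in PC3, where 23.4% of all genes passed, and ETV4AAA raised 4 and lowered none there, where 3.69% passed. The ETV4AAA count in PC3 was 1 without ETV4AAA replicate 2, without either eGFP replicate or with PC3 fitted alone. In 22Rv1, ETV4WT raised none and lowered 1, SMAD3 (−0.57 ± 0.13, adjusted p = 0.0486), where 1.50% of all genes passed. No gene of the list passed there with 22Rv1 fitted alone or when any 1 of the 4 libraries was left out. ETV4AAA in 22Rv1 raised 5 and lowered 6, where 31.8% of all genes passed. STAT3 rose in PC3 by 3.04 ± 0.15 with ETV4WT (adjusted p = 4.40e-07) and by 0.86 ± 0.15 with ETV4AAA (adjusted p = 0.00781). In 22Rv1 it rose by 1.31 ± 0.12 with ETV4AAA (adjusted p = 7.62e-06). It read 10.3 and 11.4 CPM with ETV4WT, against 1.27 and 1.37 CPM with eGFP in PC3, and 123 and 116 CPM with ETV4AAA and 47.3 and 49.2 CPM with eGFP in 22Rv1. JUN, a component of AP-1, rose by 1.58 ± 0.17 with ETV4WT in PC3 (adjusted p = 5.64e-05), by 1.52 ± 0.17 with ETV4AAA in PC3 (adjusted p = 0.000531) and by 1.45 ± 0.17 with ETV4AAA in 22Rv1 (adjusted p = 5.03e-05). FOS, another component of AP-1, fell by −1.68 ± 0.20 with ETV4AAA in 22Rv1 (adjusted p = 4.37e-05), where it read 34.6 and 32.9 CPM with ETV4AAA and 115 and 101 CPM with eGFP. MYC was at 0.09 ± 0.15 with ETV4WT in PC3 (adjusted p = 0.724).

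The genes whose levels were most like those of each inhibitor or cyclin were found over the 12 libraries, on log2 CPM centred within each line, among 10864 protein-coding genes. The values describe libraries that share lines and constructs and were picked as the highest of all genes searched, so they carry no test. CDKN1A was most like ETV4 itself (Pearson r = 0.93), then PRR16 and CAPN2 (0.92 each). CDKN2B was most like HOXB9, HOXB8 and GPC3 (0.99 each). HOXB9, a homeobox gene, read 25.0 and 28.0 CPM with ETV4WT, 4.46 and 4.37 CPM with ETV4AAA and 3.34 and 3.95 CPM with eGFP in PC3. Levels in 22Rv1 were 7.27 and 7.90 CPM with ETV4WT, 109 and 110.3 CPM with ETV4AAA and 9.31 and 10.1 CPM with eGFP, so it too was highest with ETV4WT in PC3 and with ETV4AAA in 22Rv1.

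CDKN2D was most like the mitotic genes CDC20 and TACC3 and the cofilin gene CFL1 (0.98 each). CDKN2C was most like WNT10B (0.99), CARS2 and IMPA2 (0.98 each), and CDKN2A was most like BAMBI (0.97), LANCL2 (0.95) and ALDH1A3 (0.94). CDKN1C was most like ROR1 (0.96), and CDKN1B, which was called in no comparison with eGFP, was not searched. Among the cyclins, CCND1 was most like SYT9 (0.99), MTMR4 (0.98) and DFFB (0.97), CCND2 was most like WASF3, CTNNA1 and LIN28B (0.99 each), and CCND3 was most like TMEM109, PAQR4 and IKBKE (0.99 each).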

How the data were processed

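The deposited table holds raw, whole-number read counts per Ensembl gene ID for 12 libraries. Per the submitters' processing notes, FastQC 0.11.9 and STAR 2.5.3a were used with GRCh38. The sources used here do not name the counting program, the strand setting or the release of the annotation. IDs were matched to GENCODE 29 names (58039 of 58302).

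Counts were scaled by TMM and tested with edgeR 4.0.16 (R 4.3.3), a quasi-likelihood F test with 1 mean per group over all 12 libraries and no covariate. Genes were kept by filterByExpr, and p-values were adjusted by Benjamini-Hochberg over 23238 genes in each of 9 comparisons. The fit had 6 residual degrees of freedom and a common biological coefficient of variation of 0.149. CPM values are scaled by each library's total count times its TMM factor; ± after a log2 change is the SE. Exact intervals cover counting error only. The fit was tested on simulated data.

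The 10 genes and all lists were chosen with earlier results of these data known. Named from each list and comparison were up to 3 called genes of lowest adjusted p and the uncalled gene of highest mean CPM, neighbours that overlap a member, and the 3 genes most like each member called against eGFP. Likeness used log2(CPM + 0.5) and genes of at least 5 CPM. ETV4 is given as a check. Some genes and 1 list are not reported here. Promoter windows are RefSeq's.

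Other settings were no filter on low counts, scaling by upper-quartile factors or by DESeq2 size factors, the Wald test of DESeq2 1.42.0, each line fitted alone, a replicate block, each library left out, and PC3 without replicate 2 of both construct groups.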

Additional observations from a re-analysis of the deposited data

Results flagged for a closer look

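Of the 10 genes, 5 stood out because the effect of ETV4WT differed between the lines by a test of the difference itself. Values are the log2 change in PC3 minus that in 22Rv1, and 12.5% of all genes tested passed (7.57% higher and 4.92% lower). CDKN1A differed by −1.89, CDKN2B by 1.65, CDKN2C by −1.17, CCND3 by −1.03 and CCND1 by −0.59. The CCND1 and CCND3 calls were lost in most fits with a library left out. For ETV4AAA the same test passed for CDKN2B at −2.33, CDKN2A at −0.73 and CDKN1A at −0.72. Of all genes, 16.2% passed there (6.73% higher and 9.48% lower). The CDKN1A call for ETV4AAA was also lost in most fits with a library left out. CDKN1A and CDKN2B passed for both constructs, CDKN1A with negative differences throughout and CDKN2B with a positive difference for ETV4WT and a negative one for ETV4AAA.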

How the results depend on the processing

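Of 488 values of called changes in the 10 genes under other settings, 401 kept their direction and their call, 87 kept the direction only and none turned. The 454 values of uncalled changes gave 13 new calls and 34 changes of sign, none of them called. The cause of any shift was not tested.

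The number of the 10 genes called for ETV4AAA against eGFP in PC3 (2) was 1 with DESeq2 size factors, 0 with each line fitted alone, 1 without both PC3 replicates 2 and 0 to 1 with a library left out. For ETV4AAA against ETV4WT in PC3 (6) it was 3 with each line fitted alone, 3 without both replicates 2 and 3 to 6 with a library left out. Leaving out a library gave 4 to 7 for ETV4AAA against eGFP and 3 to 5 for ETV4AAA against ETV4WT in 22Rv1, and 3 to 5 for the effect of ETV4WT and 1 to 3 for that of ETV4AAA between the lines.

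Uncalled log2 changes that turned were these. With ETV4WT in PC3, CDKN2A was 0.065 under upper-quartile factors, 0.021 with no filter and 0.046 without both replicates 2. With ETV4AAA in PC3, CDKN1B was 0.049 under DESeq2 size factors, 0.0095 under upper-quartile factors, 0.0071 with no filter, 0.049 with DESeq2's Wald test and 0.0016 with the line alone, and CDKN2D was 0.15 without both replicates 2. CCND3 was 0.0025 for ETV4AAA against ETV4WT in 22Rv1 with the line alone. Between the lines, CDKN2C was −0.14 under upper-quartile factors, and the effect of ETV4WT on CDKN2A differed by 0.065 under them and by 0.028 without both replicates 2.

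With a library left out, changes with ETV4WT in PC3 ran from −0.21 to 0.23 for CDKN1A, −0.73 to 0.019 for CDKN1C and −0.12 to 0.015 for CDKN2A; with ETV4AAA in PC3, from −0.11 to 0.020 for CDKN1B and −0.46 to 0.13 for CDKN2D. With ETV4WT in 22Rv1 they ran from −0.062 to 0.0089 for CDKN1B, −0.25 to 0.049 for CDKN1C, −0.036 to 0.11 for CDKN2C, −0.19 to 0.12 for CDKN2D, −0.16 to 0.068 for CCND1 and −0.16 to 0.14 for CCND3. For CCND3 they ran from −0.21 to 0.092 with ETV4AAA in 22Rv1, −0.14 to 0.042 for ETV4AAA against ETV4WT there and −0.20 to 0.10 between the lines, and the line difference in the ETV4WT effect on CDKN1C ran from −0.62 to 0.13.

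Counts over all genes moved by more than 1.5 times too. ETV4AAA in PC3 (858 called) gave 2152 with no filter, 430 with the line alone and 210 to 2123 with a library left out. ETV4WT in PC3 (5434) gave 2549 to 6280 with a library left out. ETV4AAA against ETV4WT in PC3 (2550) gave 1551 with the line alone, 1355 without both replicates 2 and 1646 to 1886 with a library left out. ETV4WT in 22Rv1 (348) gave 904 with no filter and 118 to 263 with a library left out, and ETV4AAA against ETV4WT there (5455) gave 3415 to 4041. The ETV4WT effect (2903) gave 4436 with no filter and 1483 to 4363 with a library left out, and the ETV4AAA effect (3766) gave 2330 to 4648. Upper-quartile factors shifted the median of all genes by 0.15 for ETV4WT in PC3, −0.11 for ETV4AAA against ETV4WT in PC3 and −0.34 between the lines. The share of called genes that were higher was 69.2% under them and 54.4% under TMM for ETV4WT in PC3, 17.0% and 33.3% for ETV4AAA against ETV4WT in PC3, 40.6% and 50.8% between the lines and 75.6% and 60.6% for the ETV4WT effect.

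The labels do not say that replicate numbers pair the libraries. Deviations of same-numbered libraries correlated at 0.82 between ETV4AAA and ETV4WT in PC3 and at −0.37 to 0.50 in the other pairs of groups of a line. With the replicate number as a block, 6 of the 10 genes and 6296 of all genes were called for ETV4WT against eGFP in PC3. For ETV4AAA in PC3 it was 2 of the 10 against eGFP and 6 against ETV4WT, where 865 and 2517 of all genes were called. CCND3 between the lines was 0.076 under the block. The block also called the line difference in the ETV4AAA effect on CDKN2D (1.05, adjusted p = 0.0467).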
